A study of Triticum polonicum with 10 samples.

Results

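Among the transcripts counted in roots of dwarf Polish wheat, a tetraploid wheat carrying the A and B subgenomes, 5341 of 274924 gene IDs have the form Novel05139 and lie outside the reference annotation. The 194 most abundant of them are described here. They were chosen by their measured level, as the IDs of that form with a mean of at least 25 CPM over all 10 libraries, where CPM is the count of a transcript scaled to the total count of its library. Their high level is therefore a consequence of the choice and is given only as a description. A mean also admits a transcript that is high in a few libraries and low in the rest, and 23 of the 194 had a median under 25 CPM. Annotated IDs that also had a mean of at least 25 CPM, 8199 in all and low-confidence models included, are set beside them throughout. They share the threshold but are not matched in level, with a median of 48.4 CPM, against 40.6 CPM among the 194.

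An unannotated transcript is a stretch of the genome that reads show to be transcribed but that the annotation in use does not list as a gene. It may be an unlisted protein-coding gene, a long noncoding RNA, a transcribed transposable element, or an unjoined end of a neighbouring gene. Wheat genomes are large and rich in transposable elements, and wheat annotations keep a separate class of low-confidence models, whose IDs end in LC, for loci with weaker gene support. The sources used here do not give how these IDs were assembled, and the files pair them with no name, sequence or position, so they appear below by ID, length and level alone.

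The series addressed how the chemical form of an iron fertiliser alters the response of roots to cadmium, which can enter plants through uptake systems for iron and other metals. Seedlings of 4 weeks received no salt or an iron salt, without or with 80 µM CdCl2, and whole roots were taken after 1 week of treatment. In 4 libraries the iron salt was Fe2(SO4)3, here called sulfate. The library coded B50CK has the treatment text 200 µM with Cd, the one coded B200Cd has 50 µM with Cd, and the one coded B50Cd has 50 µM without Cd. In these 3, code and text contradict each other, so dose and Cd are not assigned. The remaining sulfate library is 200 µM without Cd by both. The other libraries with Cd were Cd with no iron salt, Cd with 50 µM FeCl3 and Cd with 200 µM FeCl3. Those without Cd were FeCl3 at 50 µM, FeCl3 at 200 µM and, with nothing added, the control. At equal µM, sulfate also carries more iron per formula unit than FeCl3, so salt form and amount of iron cannot be told apart.

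Each treatment had 1 library, although the design text speaks of 3 biological replicates per treatment, so a treatment has no spread of its own and p-values measure only the spread between these libraries. Total counts ran between 13635628 in the control and 19320820 in the Cd library, so that 25 CPM stood for 341 to 483 counts. All 194 transcripts had counts in every library, the lowest being 2 counts, and all 194 passed the filter on low counts. Since no ID carries a gene name, the tissue label could not be checked against root markers. Counts for an unannotated transcript that overlaps a gene, or is near-identical to one on the other subgenome, are uncertain, because the sources used here give neither the strand setting nor the treatment of multiply matching reads.

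The abundant unannotated transcripts were between 295 and 7612 bp long, with quartiles at 801, 1346 and 1992 bp. The other unannotated IDs with a count had a median length of 1059 bp, and the annotated IDs of at least 25 CPM had 1183 bp. Lengths follow from CPM divided by FPKM, the level per kilobase, and the 10 libraries gave the same length for every ID. Of the 194, 15 (7.73%) were under 500 bp, against 10.9% of the annotated IDs, while 47 reached 2000 bp or more.

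Per length, mean levels over the 10 libraries ran between 7.90 and 543 FPKM, with a median of 32.7 FPKM. The annotated IDs of at least 25 CPM, whose median CPM was higher as well, had a median of 46.8 FPKM. The other unannotated IDs with a count had 1.69 FPKM. Together the 194 took 0.963% to 1.43% of the counts of a library, of the 2.22% to 3.60% taken by all 5341 unannotated IDs. The 10 most abundant among the 194 held 17.4% to 27.6% of what the 194 held in a library.

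**Figure D1:**
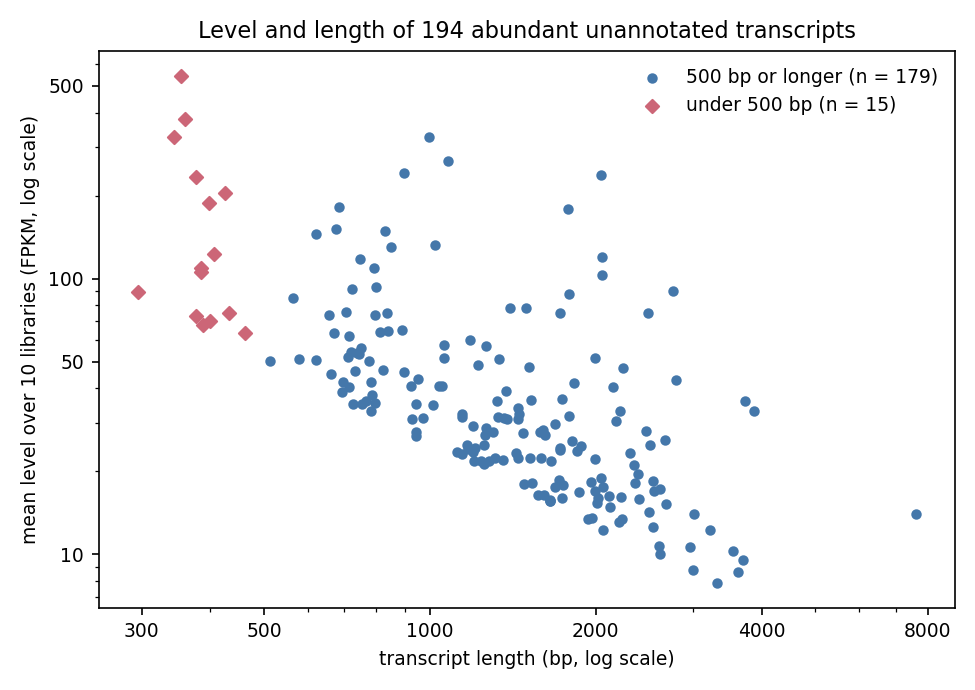
Mean level over 10 libraries in FPKM against transcript length in bp, both on log axes, with 1 point for each of the 194 abundant unannotated transcripts. Diamonds mark the 15 transcripts under 500 bp, which include 3 of the 5 highest per length, and the empty lower left corner follows from the 25 CPM threshold.

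The highest level per length belonged to Novel05139, a transcript of 354 bp with a mean of 543 FPKM. Its level was 55.4 to 247 CPM in the 4 sulfate libraries, 102 and 98.6 CPM with Cd and FeCl3 at 50 and 200 µM, and 214 and 156 CPM at these doses without Cd. It was 367 CPM with Cd and no iron salt, and 515 CPM in the control. Both libraries without iron salt were therefore above the 8 with iron salt. The next by level per length were Novel00676 (359 bp, 378 FPKM), Novel02691 (998 bp, 327 FPKM), Novel03661 (343 bp, 325 FPKM) and Novel02421 (1080 bp, 267 FPKM).

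By share of reads, which longer transcripts gain for their length, Novel02703 led with a mean of 487 CPM over 2047 bp (238 FPKM). It had 919 CPM with 200 µM sulfate, 707 CPM with 200 µM FeCl3, 296 to 666 CPM in 7 other libraries, and 180 CPM in the control. Novel02691 followed with a mean of 326 CPM, Novel03989 (1780 bp) with 317 CPM, Novel02421 with 288 CPM and Novel05077 (2760 bp) with 249 CPM. Novel02691 and Novel02421 stood among the 5 highest on both scales, and both were highest in the Cd library without iron salt, at 614 and 608 CPM, against 193 and 109 CPM in the control.

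The 3 longest were Novel00310 at 7612 bp (14.0 FPKM), Novel04096 at 3877 bp (33.1 FPKM) and Novel04959 at 3735 bp (36.0 FPKM). Novel00310 had 202 CPM with 200 µM sulfate and 46.4 CPM with 200 µM FeCl3, its highest and lowest libraries. Novel04959 had 377 CPM with 200 µM sulfate and 33.4 CPM in the control, again its highest and lowest. The shortest, Novel04123, spanned 295 bp and averaged 89.8 FPKM. At the threshold, Novel01409 with 25.3 CPM and Novel04112 with 25.2 CPM were just inside, and Novel01376 and Novel02503, both with 24.9 CPM, were just outside.

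The abundant unannotated transcripts varied between libraries about as widely as annotated ones, or slightly more. The SD of log2(CPM + 0.5) over the 10 libraries had a median of 0.55 among them and 0.51 among the annotated IDs. In 23 of the 194 (11.9%) the highest library was less than 2-fold above the lowest, against 19.3% of the annotated IDs. In 20 of them (10.3%) it was over 10-fold above, against 9.01%.

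The steadiest was Novel03989, whose 10 libraries lay between 267 and 377 CPM, a 1.41-fold range. Novel00010 (1867 bp) lay between 24.2 and 38.3 CPM, and Novel04764 (1059 bp) between 47.4 and 78.7 CPM. The most variable was Novel03361 (821 bp), with an SD of 2.93 on the log2 scale. It had 61.4 to 119 CPM in the 4 sulfate libraries and 38.5 CPM with 200 µM FeCl3 and Cd, but between 0.140 and 3.67 CPM in the other 5. The lowest value rested on 2 counts, with a 95% exact Poisson interval of 0.0170 to 0.506 CPM that covers counting error only. Novel03718 (1202 bp) and Novel03072 (1174 bp) came next, each with an SD of 1.64. Novel03072 had 84.4 CPM in the sulfate library coded B50CK and 1.41 CPM in the one coded B50Cd, with the other 8 libraries between 5.28 and 50.7 CPM.

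The clearest pattern across libraries concerned the 2 libraries with 200 µM of either iron salt and no Cd. The 194 transcripts held 1.42% of the counts with 200 µM sulfate and 1.43% with 200 µM FeCl3, and 0.963% to 1.20% in the other 8 libraries. All 5341 unannotated IDs together showed the same order, with 3.60% in each of these libraries and 2.22% to 3.20% in the others. Of the 194, 88 (45.4%) were highest in 1 of these 2 libraries, against 19.8% of the annotated IDs. In 50 (25.8%) both libraries stood above the other 8, against 5.77% of the annotated IDs, 15.4% of 409 LC IDs of at least 25 CPM, and 22.0% of 1136 unannotated IDs of 5 to under 25 CPM. The pattern thus extended to less abundant unannotated IDs and in part to LC IDs. In whole roots, fewer cells of a type and less RNA per cell cannot be told apart.

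The lead of these 2 libraries was mostly small. Over the 50 transcripts, the lower of the 2 was 1.00-fold to 3.46-fold above the highest of the other 8, with a median of 1.15-fold. Their lengths ran from 377 to 3877 bp with a median of 1469 bp, and 1 of the 50 was under 500 bp. Scaled by TMM, which takes most genes as steady in place of fixing the library total, the counts were 42 of 194 (21.6%) and 4.70% of the annotated IDs. A 2-fold lead in both libraries was seen in Novel05077, Novel03718 and Novel00550 (1.55%) and in 0% of the annotated IDs. High values in these 2 libraries also raise the mean that chose the transcripts, and 15 of the 194, Novel03718 among them, averaged under 25 CPM over the other 8. Among the other 179, both libraries stood above the rest in 45 (25.1%), against 399 of the 7981 annotated IDs chosen in this way, and by 2-fold in Novel05077 and Novel00550 (1.12%), against 0%.

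Novel05077 had 713 CPM with 200 µM sulfate and 705 CPM with 200 µM FeCl3, and 72.7 to 204 CPM in the other 8 libraries. Novel03718 had 75.0 CPM with 200 µM sulfate and 87.1 CPM with 200 µM FeCl3, and 3.15 to 33.3 CPM in the others. Novel00550 (953 bp) had 94.4 CPM with sulfate and 99.1 CPM with FeCl3 at this dose, and 14.2 to 46.9 CPM elsewhere. In each of the 3, the 2 salts at 200 µM gave nearly equal levels.

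**Figure D2:**
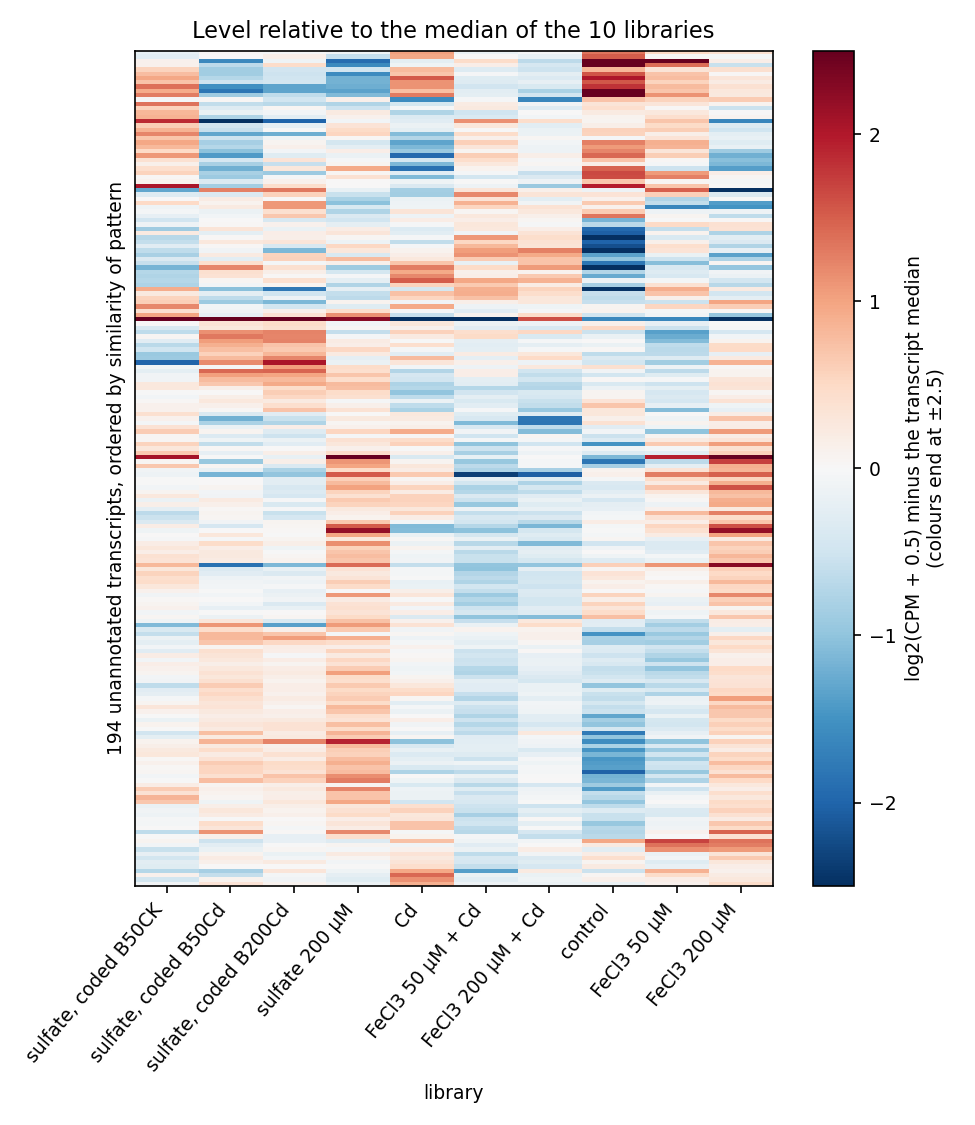
Level of each of the 194 abundant unannotated transcripts (rows, ordered by similarity of pattern) in the 10 libraries (columns), as log2(CPM + 0.5) minus the transcript's median over libraries, with red above and blue below the median. The columns for 200 µM sulfate and 200 µM FeCl3 without Cd are mostly red, and the control column holds many of the darkest cells of both colours.

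Cadmium was set against no cadmium at 3 iron supplies. With Cd and no iron salt, 116 of the 194 transcripts were higher than in the control, while with Cd and 50 µM FeCl3 79 were higher than without Cd, and with Cd and 200 µM FeCl3 48. The annotated IDs were higher in 55.5%, 47.0% and 47.3% at the same supplies. Median log2 ratios of the unannotated transcripts were 0.36, -0.22 and -0.56, and of the annotated IDs 0.12, -0.04 and -0.05. These medians depend on the scaling. Over 25616 genes of at least 5 CPM the medians were 0.20, -0.12 and -0.21 by library total and -0.01, 0.06 and 0.02 under TMM. Under TMM the unannotated transcripts had 0.15, -0.04 and -0.33, the same signs, and the annotated IDs -0.10, 0.14 and 0.18, the opposite signs.

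By at least 2-fold, 45 were higher and 26 lower with Cd and no iron salt, 11 higher and 25 lower with Cd and 50 µM FeCl3, and 17 higher and 41 lower with Cd and 200 µM FeCl3. The annotated IDs gave 18.6% and 14%, 8.01% and 5.93%, and 14.2% and 7.42% in the same order.

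At 200 µM FeCl3, 146 of the 194 (75.3%) were lower with Cd, against 52.7% of the annotated IDs, and 134 (69.1%) under TMM, against 40.3%. By at least 2-fold, 41 (21.1%) were lower, against 7.42% of the annotated IDs, and 27 (13.9%) under TMM, against 3.81%. Among the 179 that averaged at least 25 CPM without the 2 libraries at 200 µM and no Cd, 131 (73.2%) were lower, against 51.8% of the annotated IDs chosen in this way, and 35 (19.6%) by at least 2-fold, against 6.94%. For sulfate, the partner with Cd at 200 µM is either the library coded B50CK or the one coded B200Cd. In 98 of the 194 (50.5%), both candidates were lower than 200 µM sulfate without Cd, against 28.4% of the annotated IDs. By at least 2-fold both candidates were lower in 8 (4.12%), against 1.79%. In 88 (45.4%) both salts showed the lower level, against 17% of the annotated IDs. The lower level in both salts was at least 2-fold in 7 (3.61%), against 0.573%, and Novel05077, Novel03718 and Novel00550 were among the 7. High values without Cd at 200 µM also raise the mean that chose the transcripts. The counts with sulfate and with both salts were not repeated among the 179, to which Novel03718 does not belong. The libraries with 200 µM of either salt and no Cd enter both this contrast and the pattern above, so they are not independent.

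Over the 3 Cd pairs together, most transcripts did not keep 1 direction. With Cd, 21 (10.8%) were higher in every pair, against 20.7% of the annotated IDs, 43 (22.2%) were lower in every pair, against 18.6%, and 130 were mixed. By at least 2-fold in every pair, Novel01997, Novel02342 and Novel04478 were higher, against 2.51% of the annotated IDs, and Novel00550, Novel00895 and Novel05077 were lower, against 0.683%. Each of these groups of 3 makes 1.55% of the 194. Levels in these pairs also enter the mean that chose the transcripts. In the libraries of these pairs without Cd, Novel01997 and Novel04478 were always under 25 CPM, and Novel02342 was always above it. These counts, and the Cd counts at an unadjusted p below, were not repeated among transcripts chosen without these libraries.

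The Cd effect was tested in an additive fit of 6 libraries with iron supply as a term (edgeR quasi-likelihood test, Benjamini-Hochberg adjustment over 55236 genes). No gene passed an adjusted p of 0.05 (0% called), and the smallest adjusted p among the 194 was 0.159. At an unadjusted p under 0.05, 16 of the 194 (8.25%) were higher with Cd, against 7.35% of all genes tested and 11.7% of the annotated IDs. Lower were 18 (9.28%), against 4.64% and 3.95%. Over all genes, 6624 had an unadjusted p under 0.05, and DESeq2 called 2269 genes, 14 of the 194 among them. Any change of the Cd effect between iron supplies counts as error in these fits.

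The largest fold among transcripts higher with Cd in every pair was that of Novel02080 (891 bp). It had 118 CPM with Cd alone, 67.3 CPM with Cd and 50 µM FeCl3 and 102 CPM with Cd and 200 µM FeCl3, against 7.99, 36.5 and 24.7 CPM at the same supplies without Cd. The 3 libraries with Cd all stood above the 3 without, and the log2 fold was 2.32 ± 0.54 (SE), with an adjusted p of 0.196 in edgeR. In the sulfate libraries it had 114 CPM in the one coded B50Cd, 64.2 CPM in B200Cd, 21.3 CPM in B50CK and 26.0 CPM with 200 µM and no Cd, so the libraries with Cd in their code were the higher ones.

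Novel02938 (850 bp) had 108, 237 and 149.9 CPM with Cd at none, 50 and 200 µM FeCl3, against 10.7, 85.6 and 92.3 CPM without Cd. All 3 libraries with Cd were the higher ones, most narrowly over 200 µM FeCl3 alone, and the log2 fold was 1.88 ± 0.49 (SE; adjusted p of 0.227 in edgeR). With sulfate, Novel02938 had 114.0 CPM (coded B50Cd), 122 CPM (B200Cd), 68.6 CPM (B50CK) and 114.9 CPM (200 µM, no Cd). The library coded B50Cd was thus not above the one at 200 µM without Cd.

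Lower with Cd, Novel00895 (377 bp) had 37.8, 28.7 and 28.4 CPM with Cd at none, 50 and 200 µM FeCl3, against 86.2, 123 and 278 CPM without. The level without Cd was higher at each larger FeCl3 dose, while the level with Cd was nearly flat. Its log2 fold was -2.13 ± 0.42 (SE), with the smallest adjusted p of the 194, 0.159 in edgeR. Its sulfate libraries had 15.3 CPM (coded B50Cd), 26.0 CPM (B200Cd), 101 CPM (B50CK) and 153 CPM (200 µM, no Cd).

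Novel03494 (714 bp) had 16.5, 26.9 and 12.2 CPM with Cd at none, 50 and 200 µM FeCl3, against 184, 129.7 and 22.0 CPM without. The gap was wide at none and 50 µM and narrow at 200 µM, and the log2 fold was -2.14 ± 0.63 (SE; adjusted p of 0.268 in edgeR). Its median was 19.6 CPM, and its mean passed the threshold only through the control and 50 µM FeCl3 without Cd. With sulfate, Novel03494 had 6.05 CPM (coded B50Cd), 18.1 CPM (B200Cd), 21.0 CPM (B50CK) and 4.84 CPM (200 µM, no Cd). Its lowest sulfate library was thus the one at 200 µM without Cd, and its highest the one coded B50CK. Novel05077, with 72.7, 75.8 and 113 CPM with Cd against 152, 204 and 705 CPM without, had a log2 fold of -1.65 ± 0.38 (SE; adjusted p of 0.192 in edgeR). With sulfate, Novel05077 had 156 CPM (coded B50Cd), 157 CPM (B200Cd), 143 CPM (B50CK) and 713 CPM (200 µM, no Cd).

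**Figure D3:**
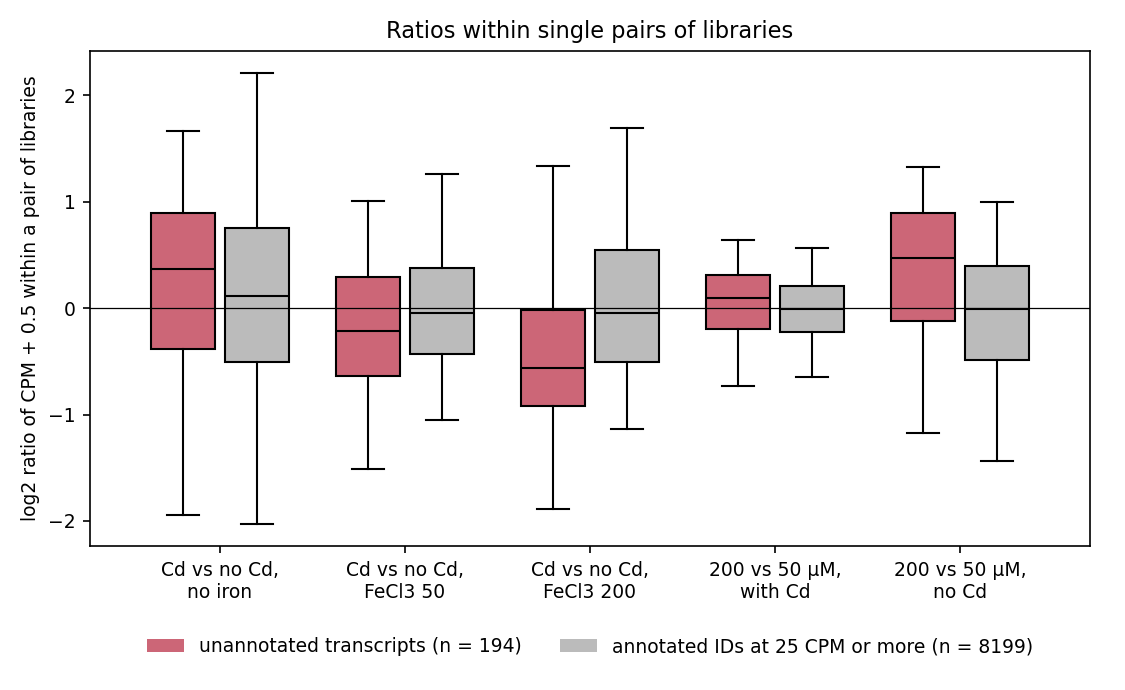
Log2 ratios of CPM + 0.5 (library-total scaling) within single pairs of libraries, for the 194 abundant unannotated transcripts (red) and the 8199 annotated IDs of at least 25 CPM (grey), with the line at the median, the box over the quartiles and whiskers from the 5th to the 95th percentile. The red median is above the grey one for Cd without iron, below it for Cd at 50 and 200 µM FeCl3, and above it for 200 against 50 µM without Cd; under TMM scaling all grey Cd medians change sign, and the red median for 200 against 50 µM with Cd becomes negative.

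FeCl3 supply was set against none, with and without Cd. At 50 µM, 64 of the 194 were higher with Cd and iron than with Cd alone, and 104 were higher with iron than in the control, against 46.5% and 52.1% of the annotated IDs. At 200 µM the numbers were 69 and 138, against 46.3% and 52.7%. The 138 come from the pair that holds 200 µM FeCl3 without Cd, a library that also enters the pattern described above. Median log2 ratios of the unannotated transcripts at 50 µM were -0.38 with Cd and 0.06 without, and 0.02 and 0.07 under TMM, so the sign with Cd depended on the scaling. At 200 µM they were -0.21 with Cd and 0.58 without, and 0.04 and 0.39 under TMM, with the same dependence. The annotated IDs at 50 µM had -0.09 with Cd and 0.04 without, and 0.32 and 0.05 under TMM. For these IDs at 200 µM the values were -0.07 and 0.07, and 0.19 and -0.13 under TMM. With Cd, the medians of the unannotated transcripts were thus below those of the annotated IDs under either scaling.

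Transcripts higher than none in both pairs numbered 33 (17.0%) at 50 µM, against 29.8% of the annotated IDs, and those lower numbered 59 (30.4%), against 31.2%. Under TMM this split was 54 (27.8%) higher, against 39.6%, and 42 (21.6%) lower, against 21.0%. At 200 µM, 43 (22.2%) were higher, against 25.8%, and 30 (15.5%) lower, against 26.8%, and under TMM 66 (34.0%) higher, against 29.8%, and 32 (16.5%) lower, against 24.4%. The share higher at 200 µM was thus below that of the annotated IDs by library total and above it under TMM. By at least 2-fold in both pairs at 50 µM, 4 were higher and 4 lower (2.06% each), against 5.43% and 1.29% of the annotated IDs. At 200 µM, 1 was higher (0.515%) and 6 lower (3.09%), against 3.46% and 1.27%.

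No gene passed an adjusted p of 0.05 for either dose in edgeR (0% called, 55236 genes), and the smallest adjusted p among the 194 was 0.410 for 50 µM and 0.528 for 200 µM FeCl3. Past an unadjusted p of 0.05, 10 (5.15%) were higher and 6 (3.09%) lower at 50 µM, against 6.06% and 3.16% of all genes tested and 13.7% and 2.17% of the annotated IDs. With 200 µM, 13 (6.70%) were higher and 11 (5.67%) lower, against 5.51% and 3.77% of all genes and 8.27% and 4.13% of the annotated IDs. Most of these shares were near those of all genes. Over all genes, 5093 and 5125 had an unadjusted p under 0.05 for 50 and 200 µM, and DESeq2 called 849 genes (5 of the 194) and 462 genes (3 of the 194).

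Higher with iron, Novel00336 (1443 bp) had 56.4 CPM at 50 µM FeCl3 and 55.5 CPM with Cd added, against 5.06 CPM in the control and 21.9 CPM with Cd alone. Its log2 fold at 50 µM was 2.54 ± 0.53 (SE; adjusted p of 0.410 in edgeR). Novel01284 (433 bp) had 31.0, 61.4 and 71.3 CPM at none, 50 and 200 µM FeCl3 with Cd, and 3.30, 37.4 and 25.3 CPM without Cd. The control was its lowest library by far, and its log2 folds were 2.39 ± 0.58 at 50 µM and 1.95 ± 0.56 at 200 µM (SE; adjusted p of 0.431 and 0.528 in edgeR). Among transcripts higher than none in both pairs, Novel03718 had the largest fold at 200 µM, 2.45 ± 0.94 (SE; adjusted p of 0.532 in edgeR), with 5.64, 6.52 and 7.52 CPM at none, 50 and 200 µM with Cd but 3.15, 30.0 and 87.1 CPM without Cd. Nearly all of that fold came from the libraries without Cd, and it was 1.19 without the library at 200 µM FeCl3 alone and 1.03 without the control.

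Lower with iron, Novel01233 (384 bp) had 53.4, 17.9 and 15.2 CPM at none, 50 and 200 µM FeCl3 with Cd, and 159, 47.2 and 25.4 CPM without Cd. Both series ran downwards with dose, and the log2 folds were -1.50 ± 0.44 at 50 µM and -2.22 ± 0.46 at 200 µM (SE; adjusted p of 0.449 and 0.528 in edgeR). Novel02383 (462 bp) had 12.8, 15.6 and 10.2 CPM with Cd and 163, 36.9 and 9.21 CPM without Cd, so its difference lay mostly in the control. Its log2 fold at 200 µM was -2.43 ± 1.06 (SE; adjusted p of 0.548 in edgeR), and -0.40 was the value without the control. Novel05139, described first above, had a log2 fold of -1.36 ± 0.39 at 50 µM (SE; adjusted p of 0.449 in edgeR).

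The transcripts at least 2-fold lower with iron were nearly all short. All 4 that were at least 2-fold lower in both pairs at 50 µM were under 500 bp, as were 5 of the 6 at 200 µM, whereas 15 of all 194 (7.73%) were so short. Levels without iron salt also enter the mean that chose the transcripts, and these counts were not repeated without those libraries. Novel01233, in both groups, and Novel04112, among the 6, averaged under 25 CPM over the libraries with iron salt. The 1 transcript at least 2-fold higher in both pairs at 200 µM, Novel01284, was short as well, and the 4 higher at 50 µM were not. Among annotated IDs lower in this way, 17.0% at 50 µM and 36.5% at 200 µM were under 500 bp, against 10.9% of all annotated IDs of at least 25 CPM. The control, which is the library without iron and Cd, was the highest library of 28 transcripts (14.4%), against 21.1% of the annotated IDs. Of these 28, 8 (28.6%) were under 500 bp, against 13.0% of the annotated IDs highest there. The short ones were not all high there: Novel01284 was lowest in the control, at a log2 of -3.05 relative to the median of the other 9 libraries, and Novel00676, Novel01447 and Novel04123 lay at -0.15, 0.02 and -0.16.

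In 9 of the 15 short transcripts (60.0%) the control was at least 2-fold above the median of the other 9 libraries, against 13 of the 179 longer ones (7.26%). The shares of annotated IDs were 24.2% and 12.5%. Among the 13 short transcripts that averaged at least 25 CPM without the control, the count was 7 (53.8%), against 22.7% of the annotated IDs chosen in this way. The median log2 of the control over the other libraries was 1.40 for the short and -0.37 for the longer unannotated transcripts, and 0.13 and -0.08 for annotated IDs. Over classes of 500 to 1000, 1000 to 2000 and at least 2000 bp it was -0.10, -0.37 and -0.58. Across the 194 transcripts, log2 length and the log2 control ratio had a Pearson r of -0.358 and a Spearman rho of -0.338. The r was -0.232 over 1136 unannotated IDs of 5 to under 25 CPM and -0.052 over the 8199 annotated IDs. These transcripts share the same 10 libraries and their depths, and 1 library, the control, supplies the numerator for all of them. The limit of 500 bp was set after the lengths had been seen, and with limits of 400 and 600 bp the median of the short ones was 1.18 and 1.29.

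Apart from these, the control did not stand out more for unannotated than for annotated IDs. It was the lowest library of 53 of the 194 (27.3%), against 26.1% of the annotated IDs. It lay at least 2-fold below every other library in 9 (4.64%), against 6.89%, and at least 2-fold above in Novel01233, Novel02383 and Novel03661 (1.55%), against 2.72%. Novel02383 averaged under 25 CPM over the 9 libraries other than the control, so without the control it would not be among the 194. Novel03661 had 21.2 to 144 CPM in 9 libraries and 449 CPM in the control.

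**Figure D4:**
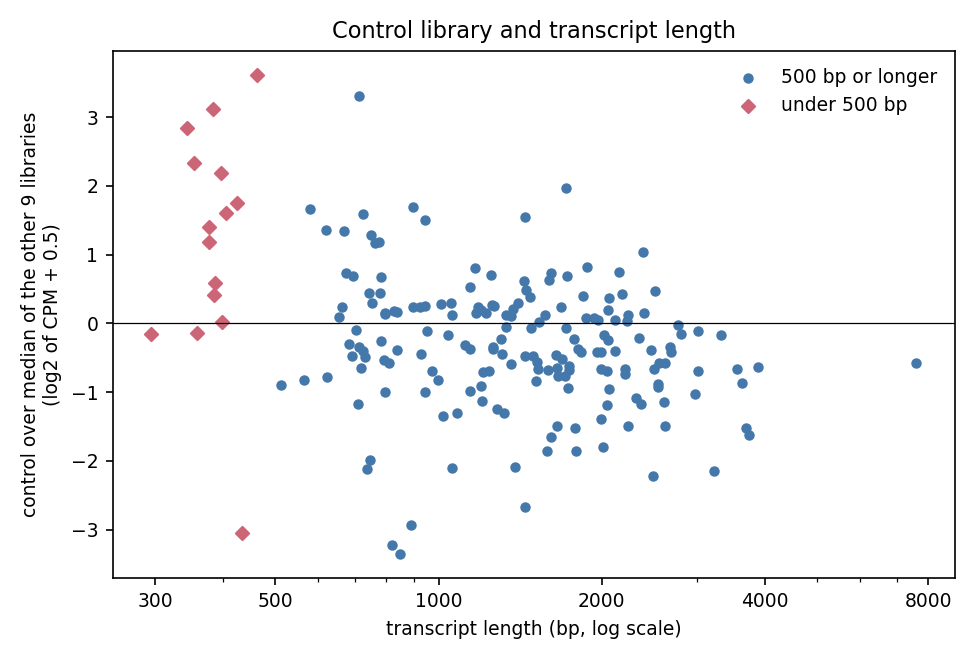
Log2 of the control level over the median of the other 9 libraries (CPM + 0.5) against transcript length in bp on a log axis, with 1 point for each of the 194 abundant unannotated transcripts. The 15 transcripts under 500 bp (diamonds) have a median of 1.40, and the 179 longer ones a median of -0.37.

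FeCl3 at 200 µM was set against 50 µM. With Cd, 115 of the 194 were higher at 200 µM, against 49.3% of the annotated IDs, with median log2 ratios of 0.09 and -0.01. Without Cd, 139 were higher, against 49.6%, with medians of 0.47 and -0.01. Under TMM the medians of the unannotated transcripts were -0.05 with Cd and 0.26 without, so the direction turned with Cd and held without. Those of the annotated IDs were -0.15 and -0.21 under TMM. By at least 2-fold, 2 were higher at 200 µM with Cd (1.03%, against 0.951% of the annotated IDs) and 40 without Cd (20.6%, against 4.94%). The library with 200 µM FeCl3 and no Cd enters both this contrast and the pattern described first, so they are not independent. Its levels also enter the mean that chose the transcripts, and the counts between doses were not repeated among the 179 described above.

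In both pairs, 97 (50.0%) were higher at 200 µM, against 29.2% of the annotated IDs, and 37 (19.1%) lower, against 30.3%. Under TMM 67 (34.5%) were higher, against 15.1%, and 58 (29.9%) lower, against 46.8%. No transcript was at least 2-fold higher in both pairs, against 0.061% of the annotated IDs, and 1 (0.515%), Novel03494, was at least 2-fold lower in both, against 0.439%. In edgeR 0 genes were called (0% of 55236), with adjusted p-values of 1, and at an unadjusted p under 0.05 there were 0 higher and 3 (1.55%) lower transcripts, against 0.702% and 0.878% of all genes and 0.11% and 0.927% of the annotated IDs. Over all genes, 873 had such a p, and DESeq2 called 3 genes, 0 of them among the 194.

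Among transcripts of 1 direction in both pairs, Novel00735 (1792 bp) had the largest positive fold, with 132 CPM at 200 µM against 70.8 CPM at 50 µM with Cd, and 449 against 86.7 CPM without Cd. Its log2 fold was 1.64 ± 0.74 (SE; adjusted p of 1 in edgeR), and 0.23 without the library at 200 µM FeCl3 alone. For Novel05077 the levels were 113 against 75.8 CPM with Cd and 705 against 204 CPM without Cd, and the fold was 1.03 ± 0.46 (SE; adjusted p of 1 in edgeR), or 0.43 without that library. The library at 200 µM without Cd thus carried most of both folds.

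The largest negative fold among them belonged to Novel01486 (2055 bp), with 206 CPM at 200 µM against 236 CPM at 50 µM with Cd, and 30.3 against 535 CPM without Cd. The wide gap was in the pair without Cd alone, and the fold of -1.86 ± 1.07 (SE; adjusted p of 1 in edgeR) was -0.37 without 200 µM FeCl3. Novel03494 had 12.2 against 26.9 CPM with Cd and 22.0 against 129.7 CPM without Cd, and a fold of -1.86 ± 0.73 (SE; adjusted p of 1 in edgeR), or -0.95 without 200 µM FeCl3. As given above, its high level at 50 µM FeCl3 without Cd is part of what brought it past the threshold.

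**Figure D5:**
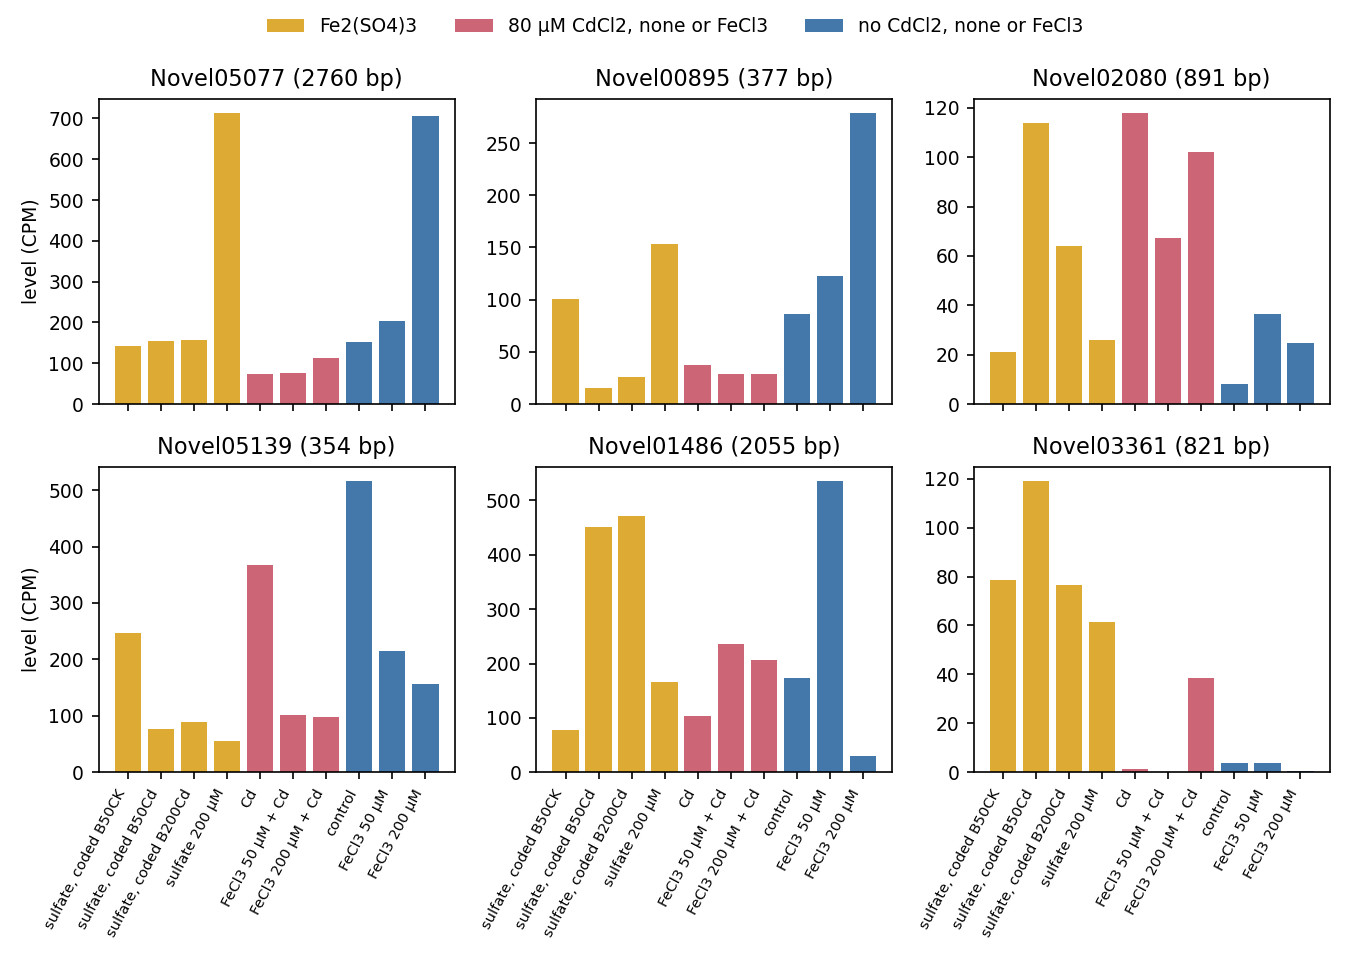
Level in CPM (bars from 0) of 6 abundant unannotated transcripts in each of the 10 libraries, with sulfate libraries in yellow and, of the other 6, those with Cd in red and those without Cd in blue. Novel05077 is high with 200 µM of either salt and no Cd, Novel00895 is low and Novel02080 high in the red bars, and Novel05139 is highest in the control. Novel01486 is highest at 50 and lowest at 200 µM FeCl3 without Cd, and Novel03361 is high in all 4 sulfate libraries.

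Sulfate was set against FeCl3 over 4 libraries of each salt, which cover both doses without and with Cd under either reading of the labels. The mean over the sulfate libraries was above that over the FeCl3 libraries in 131 of the 194 (67.5%), against 49.4% of the annotated IDs, and in 63.9% under TMM, against 39.8%. The median log2 fold was 0.13 among the 194 and 0.00 over all genes tested. No gene was called in edgeR (0% of 50484), and the smallest adjusted p was 0.999, while 1803 genes had an unadjusted p under 0.05 and DESeq2 called 14 genes, 0 of them among the 194. At an unadjusted p under 0.05, 14 (7.22%) were higher with sulfate, against 1.59% of all genes and 0.537% of the annotated IDs, and 6 (3.09%) were lower, against 1.98% and 1.87%. These counts moved with single libraries, and the 14 became 28 (14.4%) without 200 µM FeCl3, against 1.29% of the annotated IDs, 26 (13.4%) without the library coded B50CK, against 2.55%, and 3 (1.55%) without 50 µM FeCl3, against 0.342%. Levels with sulfate also enter the mean that chose the transcripts, and the 14 were not recounted among transcripts chosen without the sulfate libraries.

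In 4 transcripts (2.06%), Novel03361, Novel00156, Novel01694 and Novel02930, every sulfate library was above every FeCl3 library, against 0.598% of the annotated IDs. In no transcript was every sulfate library below, against 0.695%. The choice of transcripts by mean level touches this count, because 22 of the 194, Novel03361, Novel00156 and Novel02930 among them, averaged under 25 CPM over the 6 libraries without sulfate. Among the other 172 the count was 1 (0.581%), Novel01694, against 0.531% of the annotated IDs chosen in this way, and the mean with sulfate was the higher one in 64.0%, against 47.6%. Over the 194, the count of 4 became 50 (25.8%) without 200 µM FeCl3, against 4.43% of the annotated IDs, and 18 (9.28%) without the sulfate library coded B50CK, against 3.96%.

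Novel03361 had 78.4, 119, 76.6 and 61.4 CPM with sulfate (coded B50CK, B50Cd and B200Cd, and 200 µM without Cd), a mean of 83.8 ± 24.6 CPM (SD, n = 4). With FeCl3 it had 0.140 and 38.5 CPM at 50 and 200 µM with Cd and 3.63 and 0.409 CPM without Cd, a mean of 10.7 ± 18.6 CPM (SD, n = 4). The groups did not overlap, but 1 FeCl3 library was far above the other 3. The log2 fold was 2.90 ± 1.26 (SE; adjusted p of 0.999 in edgeR), and 5.83 without the library with 200 µM FeCl3 and Cd. The libraries without iron salt were low as well, at 1.45 CPM with Cd and 3.67 CPM in the control.

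Novel00156 (754 bp) averaged 34.6 ± 7.87 CPM with sulfate and 19.4 ± 7.07 CPM with FeCl3 (SD, n = 4 each), and its lowest sulfate library, at 28.0 CPM, was just above its highest FeCl3 library, at 27.0 CPM. Its log2 fold was 0.77 ± 0.31 (SE; adjusted p of 0.999 in edgeR). Its control library, at 33.4 CPM, lay within the range of the sulfate libraries.

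Some IDs carry consecutive numbers, and 8 such pairs fell within the 194. Over the 10 libraries, log2 levels of the pair Novel03661 and Novel03662 had a Pearson r of 0.940, and the pair Novel00874 and Novel00875 of 0.901. The other 6 pairs ranged from -0.660 to 0.850, and the median of the 8 was 0.66, against 0.16 over all 18721 pairs of the 194. The points of each pair are the same 10 libraries, and the sources used here do not say what consecutive numbers stand for. Novel03661 and Novel03662, of 343 and 406 bp, had 21.2 to 144 CPM and 13.3 to 69.6 CPM in 9 libraries, and both were highest in the control, at 449 and 121 CPM.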

How the data were processed

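Whole-number counts per gene ID and FPKM values were deposited by the authors for 10 libraries, 1 per treatment. Per the submitters' processing notes, Bowtie2 2.0.6 and TopHat2 2.0.12 were used, and the sources used here give neither the counting program, the genome build nor the assembly of unannotated transcripts. Dividing CPM by the authors' FPKM gave whole lengths (within 0.01 bp) for all 107370 IDs with a count.

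Counts were fitted over the whole table with edgeR 4.0.16 (quasi-likelihood test, TMM, filterByExpr defaults, Benjamini-Hochberg adjustment) under R 4.3.3. Cd and FeCl3 effects came from 1 additive fit of 6 libraries with 2 residual degrees of freedom, and the salts from 4 against 4 libraries. The SE was taken as the size of a fold over the root of its quasi-likelihood F. Ratios of libraries used log2(CPM + 0.5), by library total. Alternatives used DESeq2 1.42.0, limma 3.58.1 on log2(FPKM + 0.5), other scalings, filters and subsets of libraries. The fits were tested on simulated data. Thresholds on the libraries outside a pattern, leaving out single libraries in counts of pairs or of groups that do not overlap, sulfate pairs for Cd, counts at an unadjusted p under other fits, and other length limits were added after seeing the data.

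The transcripts, lists and tests were chosen with earlier results of these data known. Named transcripts were those highest in CPM and in FPKM, longest, shortest, nearest the threshold, most and least variable, and, per comparison, at most 2 per direction with the largest fold among those with 1 direction in every pair (salts: no overlap); names given beside counts of up to 5, and consecutive pairs, were chosen after their values were seen. Figures were drawn with Python 3.11.15 and matplotlib 3.10.9.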

Additional observations from a re-analysis of the deposited data

Results flagged for a closer look

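Within each salt, the share of counts held by the 194 transcripts and by all unannotated IDs, and the CPM of 7 named transcripts, were examined for 1 library far from the other 3 by Dixon's criterion at 95%. Of 18 such groups, 2 held an outlying library. The 0.9 that the criterion gives by chance does not apply here. The named transcripts were chosen from these same values, and the libraries of a salt are different treatments, not replicates.

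Novel03361 had 38.5 CPM with 200 µM FeCl3 and Cd, and 0.140 to 3.63 CPM in the other FeCl3 libraries. Novel05077 had 713 CPM with 200 µM sulfate without Cd, and 143 to 157 CPM in the other 3 sulfate libraries, whose dose and Cd are not assigned.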

How the results depend on the processing

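Calls at an adjusted p of 0.05, none in edgeR with TMM or with size factors, depended on the fit. For Cd, 2269 genes (14 of the 194 transcripts) were called by DESeq2, 3155 (18) without the filter on low counts, 109 (0) by limma on FPKM, 8 (0) without the iron term, and 1453 (5) in a fit of all 10 libraries that reads sulfate libraries by code, but 0 when it reads them by text. For 50 µM FeCl3, DESeq2 called 849 genes (5) and the unfiltered fit 1374 (5). For 200 µM they called 462 (3) and 1160 (8), and for 200 against 50 µM 3 (0) and 27 (0). DESeq2 called 14 genes (0) between the salts. The cause of these differences was not tested.

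Leaving out 1 library at a time called 4 to 2106 genes (0 to 17 transcripts) for Cd, with 2106 and 17 without the control. It called 0 to 2004 (0 to 11) for 50 µM and 0 to 3360 (0 to 23) for 200 µM FeCl3, both highest without the Cd library. Between doses it called 0 to 4 genes (0 to 0), and between salts 0 to 1 (0 to 0).

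Transcripts at least 2-fold apart in every pair became, with a 1.5-fold limit, 8 higher and 11 lower with Cd, 9 and 12 at 50 µM, 7 higher at 200 µM, and 9 and 7 between doses. With TMM scaling they became 8 higher at 50 µM, 4 higher at 200 µM, 2 lower between doses, and 7 above and 2 below between salts. Adding sulfate pairs left 0 higher and 1 lower with Cd by code, and 0 and 0 by text. Leaving out 1 library, which leaves fewer pairs, gave 5 to 7 higher and 6 to 13 lower with Cd, 14 to 25 and 15 to 32 at 50 µM, 9 to 67 and 19 to 26 at 200 µM, 2 to 40 and 3 to 17 between doses, and 4 to 50 above and 0 to 9 below between salts. The 67 (34.5%) came from the pair without Cd, where 20.2% of the annotated IDs were also at least 2-fold higher. The other counts here stand without shares of the annotated IDs and show only how far the numbers move.

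Counted over the 194 at an unadjusted p under 0.05, leaving out 1 library gave 10 to 26 higher and 8 to 37 lower with Cd, 5 to 27 and 0 to 16 at 50 µM, 4 to 46 and 5 to 29 at 200 µM, 0 to 9 and 1 to 23 between doses, and 3 to 28 and 2 to 16 between salts. Counts at an unadjusted p in this paragraph stand without shares of other genes and show only how far the numbers move. Of 200 log2 folds of named transcripts under other fits, 0 changed sign and 29 passed an adjusted p of 0.05. The threshold on TMM-scaled CPM kept 194 IDs, and one on the median of 25 CPM kept 172. Libraries with and without Cd were matched through the iron term. Between salts, dose and Cd as covariates gave 0 called genes, and 21 higher and 7 lower transcripts at an unadjusted p under 0.05 by code, or 15 and 4 by text. The labels carry no replicate numbers, so no replicate block was fitted.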
